A study of Mus musculus with 6 samples.

Results

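The NF-kappaB family was examined as 10 genes out of 54309 in the table: the 5 subunits Nfkb1, Nfkb2, Rel, Rela and Relb, and the 5 inhibitors Nfkbia, Nfkbib, Nfkbie, Nfkbiz and Tnfaip3. They were taken by gene symbol, and each symbol matched 1 gene identifier. Values are TPM, the share of a library that a transcript takes after correction for its length, on a scale that sums to 1000000, added up over the transcripts of a gene. The libraries came from lumbar ganglia L4 to L6 of male C57bl/6 mice aged 8 to 10 weeks whose dorsal columns had been cut 24 hours earlier, an injury that all animals carried. At 4 weeks before the injury the sciatic nerves of both sides had received an adeno-associated virus (AAV), carrying either GFP (AAV-GFP, 3 libraries) or leptin with GFP (AAV-Leptin-GFP, 3 libraries), called control and leptin libraries below. The ganglia were dissociated and passed over an albumin gradient that enriches neurons. The labels name neither the promoter of the vectors nor whether a library held 1 animal or several, so the p-values rest on a spread between libraries that may be technical in part. The comparison asks how leptin delivered to the nerve changed the messenger RNA of injured sensory neurons.

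NF-kappaB is a dimer of Rel-homology proteins that waits in the cytoplasm, bound by inhibitors of the IkappaB type. Cytokine and danger receptors activate the IKK kinases, which mark IkappaB for degradation and let the dimer enter the nucleus. The dimer then switches on inflammatory and survival genes, and among them its own inhibitors, which end the response. Nfkbia, Nfkbib and Nfkbie encode the classical cytoplasmic inhibitors IkappaB-alpha, -beta and -epsilon. Nfkbiz encodes IkappaB-zeta, an atypical nuclear member that is induced by stimulation and acts with NF-kappaB on a subset of its target genes. Tnfaip3 encodes the ubiquitin-editing enzyme A20, which shuts off the signal upstream of IKK. Messenger RNA levels do not report the nuclear entry or the degradation steps.

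The gene that carried the difference was Nfkbiz, and its signal lay on a transcript that starts inside the gene. The stretch shown is the coding part of the first exon of that transcript, Nfkbiz-204. Nfkbiz-203, which has a shorter reading frame, skips that exon. Nfkbiz-201 holds the same stretch, and Nfkbiz-202 has an exon with the same end, so the stretch does not mark Nfkbiz-204 alone. It was read from the GENCODE M21 transcript on GRCm38, chr16:55821768-55822053, minus strand, 286 bases, with the start codon in capitals.
Nfkbiz-204: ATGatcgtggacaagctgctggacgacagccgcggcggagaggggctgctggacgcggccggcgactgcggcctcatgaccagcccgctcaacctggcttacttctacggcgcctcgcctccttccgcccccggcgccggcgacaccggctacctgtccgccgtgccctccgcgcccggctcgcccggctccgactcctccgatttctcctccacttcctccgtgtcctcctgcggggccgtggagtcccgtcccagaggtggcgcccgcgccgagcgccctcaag

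RefSeq promoters (GRCm38.p6) were at hand for 7 of the 10 genes, and the 250 bases before each start site were searched on both strands for a core form of the site that NF-kappaB binds: GGG, any 2 bases, TT, any base, CC. These 7 genes have 10 such windows, of which 5 held the letters: 1 each for Nfkbia, Rel and Tnfaip3 and 2 for Nfkb2. Tnfaip3 and Nfkb2 each have another window without them. Counted in the same way by window, 4.11% of all 32851 windows held them. No match was found for Nfkbib, Nfkbie and Rela, which says only that these letters are absent from those windows. For 3 textbook feedback genes whose levels are given below, 1 window with a match is printed each, for Nfkb2 the one farthest upstream. Capitals mark the matches, which overlap each other at the end of the Nfkb2 window. The windows are chr12:55492648-55492897 on the minus strand for Nfkbia, chr10:19015411-19015660 on the minus strand for Tnfaip3 and chr19:46304487-46304736 on the plus strand for Nfkb2.
Nfkbia: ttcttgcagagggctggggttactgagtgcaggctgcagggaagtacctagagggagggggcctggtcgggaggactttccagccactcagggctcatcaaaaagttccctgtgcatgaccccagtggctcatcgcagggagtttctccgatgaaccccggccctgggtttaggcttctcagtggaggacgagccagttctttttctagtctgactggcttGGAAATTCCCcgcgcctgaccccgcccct
Tnfaip3: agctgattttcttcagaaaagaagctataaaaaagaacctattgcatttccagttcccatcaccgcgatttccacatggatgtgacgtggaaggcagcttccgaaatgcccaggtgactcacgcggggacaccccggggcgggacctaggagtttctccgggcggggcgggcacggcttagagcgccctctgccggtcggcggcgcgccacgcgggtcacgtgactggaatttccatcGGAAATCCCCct
Nfkb2: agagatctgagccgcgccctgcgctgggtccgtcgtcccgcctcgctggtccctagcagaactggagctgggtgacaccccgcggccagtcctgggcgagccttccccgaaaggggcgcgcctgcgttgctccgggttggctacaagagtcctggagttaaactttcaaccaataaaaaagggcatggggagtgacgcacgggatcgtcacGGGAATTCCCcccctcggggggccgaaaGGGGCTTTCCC

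With AAV-Leptin-GFP 1 of the 10 genes rose, Nfkbiz, and none fell, at a Benjamini-Hochberg adjusted limma p under 0.05 over all genes tested. Across the 15108 genes that averaged 1 TPM or more, 1.61% were called, 1.54% higher and 0.0662% lower. All 10 family genes passed that filter, and each had a mean above 1 TPM in both groups, the lowest being Rel at 1.05 TPM in the control libraries. At an unadjusted p under 0.05 the count was also 1 higher and 0 lower, against 11.3% and 8.19% of all tested genes. The median log2 fold change of the 10 genes was 0.12 and that of all tested genes -0.00016, with 7 of the 10 above 0, as were 49.9% of all tested genes. The 2 groups of libraries did not overlap for Nfkbiz, Nfkb2 and Rel, which were higher, and for Nfkbie, which was lower. The groups were apart for 25.2% of all tested genes, 13.3% in the higher direction and 11.9% in the lower, beside 4 of the 10 here.

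Nfkbiz (ENSMUSG00000035356, chromosome 16, 55811375 to 55838899 on GRCm38) stood at 3.06, 2.20 and 2.12 TPM in AAV-GFP replicates 1, 2 and 3. The leptin libraries stood at 7.50, 8.40 and 8.41 TPM. Every leptin library lay above every control library. The means were 2.46 ± 0.521 (SD, n = 3) and 8.10 ± 0.519 TPM, 3.30 times as high with leptin. On the log2(TPM + 1) scale, which understates changes of low genes, the fold change was 1.41 (SE 0.13, 95% interval 1.09 to 1.72, limma adjusted p = 0.0155). The call held without AAV-GFP replicate 1 (adjusted p = 0.00401) and without AAV-Leptin-GFP replicate 3 (0.0333). It was lost without AAV-GFP replicate 2 (0.0662), AAV-GFP replicate 3 (0.0775), AAV-Leptin-GFP replicate 1 (0.0558) or AAV-Leptin-GFP replicate 2 (0.0733), while the fold change stayed between 1.336 and 1.53. With no filter on low values the adjusted p was 0.0661.

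**Figure D1:**
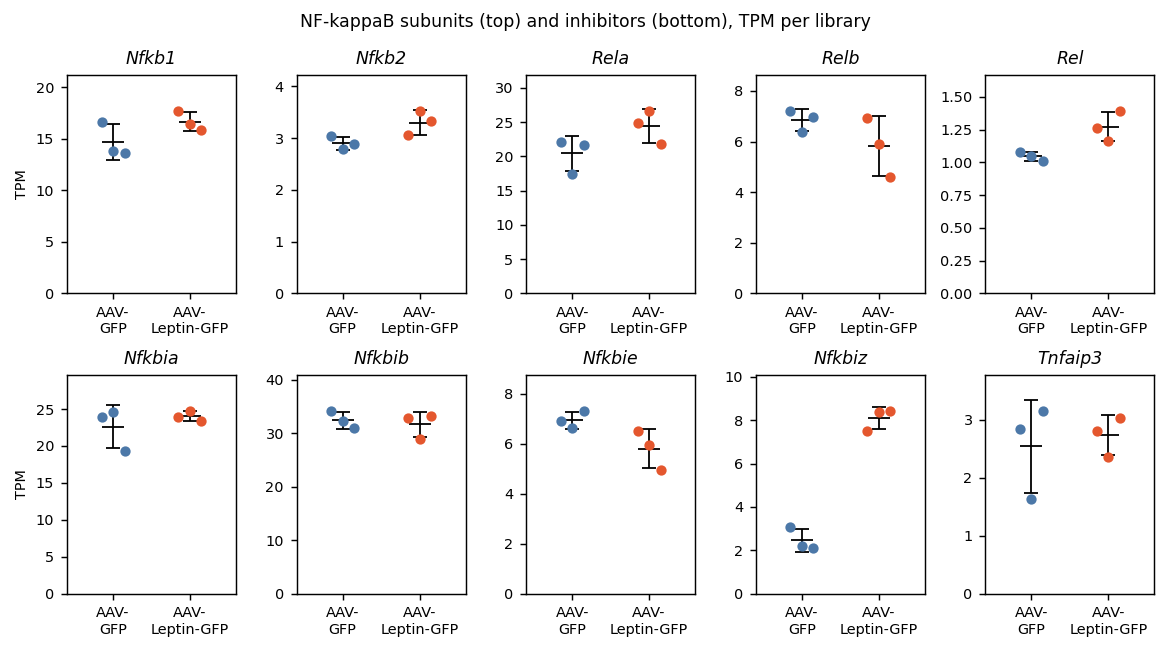
TPM (vertical axis, from 0) of each gene in the 3 AAV-GFP and 3 AAV-Leptin-GFP libraries; points are libraries, bars the mean ± SD. Nfkbiz is the panel in which the groups stand far apart, at 2.12 to 3.06 against 7.50 to 8.41 TPM.

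Nfkbiz is also known to be induced in myeloid cells, and the summed markers of those cells overlapped between the groups. The 14 macrophage markers summed to 84.9 to 119.7 TPM in the control libraries and 101.2 to 109.4 TPM in the leptin libraries, with Lyz2 the most abundant and none called. Within that list Cd14, a co-receptor for bacterial lipopolysaccharide, stood at 4.34, 3.87 and 2.07 TPM in the control libraries and 8.15, 4.77 and 6.40 TPM in the leptin libraries. Its groups were apart (0.76, limma adjusted p = 0.161), as were those of Nfkbiz, and its part in the Nfkbiz difference was not tested. Cd14 was the only 1 of the 14 markers with groups apart, beside 25.2% of all tested genes. Of the 14, 6 had a log2 fold change above 0 and 8 below, with a median of -0.065. The 8 neutrophil markers, led by S100a9, summed to 124.3 to 431.5 and 224.2 to 296.3 TPM, and none of the 7 tested was called. The 9 T and B cell markers summed to at most 5.03 TPM in any library, led by Cd79a. The 12 neuron markers, led by Nefl, were abundant in every library, at 23674 to 25098 and 23296 to 23968 TPM. Endothelial markers, led by Egfl7, ran from 91.0 to 91.8 against 74.5 to 85.9 TPM, and satellite glia markers, led by Apoe, from 8900 to 10111 against 7975 to 8834 TPM, lower in every leptin library with no member called. Myelinating Schwann cell markers, led by Pmp22, were lower as well, at 972.7 to 1007 against 856.9 to 938.8 TPM, and of these 9 genes Egr2, also an immediate early gene, was called, and called higher. Fibroblast and pericyte markers, led by Rgs5, overlapped at 114.0 to 154.3 and 119.2 to 137.6 TPM. Erythroid markers, led by Hbb-bs, ran from 170.1 to 256.5 and from 239.4 to 1724 TPM, with the top value in AAV-Leptin-GFP replicate 3. The part of the glial, endothelial and erythroid differences in the results was not tested. Without that library the Nfkbiz difference was 1.38 on the log2 scale. In bulk libraries such as these, fewer cells of a type and less RNA per cell cannot be told apart. A control list of 6 genes that every cell uses was also lower in every leptin library. It summed to 9061.1 to 9285.1 TPM in the control and 8433.5 to 8633.9 TPM in the leptin libraries. All 6 lay below 0, with a median of -0.13 and none called. Of the 12 neuron markers 9 lay below 0 and 3 above, with a median of -0.036. A lower sum was thus not particular to the glial and endothelial lists.

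Of the 6 annotated Nfkbiz transcripts, Nfkbiz-204 took nearly all of the signal. Its values were 2.93, 2.20 and 1.98 TPM in the control libraries and 7.06, 8.33 and 8.06 TPM in the leptin libraries, which is 93.3% to 100% of the gene in every library. It starts at position 55822138, downstream of the outer start site by 16761 bases, and has 12 exons. Nfkbiz-201 and Nfkbiz-202, with 14 exons each and starts in the outer region, were listed at 0 in all 6 libraries. The annotated start codon of Nfkbiz-202 is that of Nfkbiz-203. Nfkbiz-203, which also starts there, was listed at 0.447 TPM in leptin replicate 1, at 0.1205 TPM in leptin replicate 3 and at 0 elsewhere. Nfkbiz-204 and Nfkbiz-201 share their start codon and the last 3605 bases, and 22 bases at the 5′ end are particular to Nfkbiz-204. The coding parts are thus the same, and the assignment between them rests on reads at the 5′ end. No annotated Nfkbiz transcript is a retained-intron form, and with protein-coding transcripts only the log2 fold change was 1.43 (limma adjusted p = 0.00488).

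Rela, Nfkb1 and Rel encode the subunits of the classical pathway, p65, p50 (from a precursor) and c-Rel. Rela (ENSMUSG00000024927, chromosome 19, 5637483 to 5648130) was measured at 22.1, 17.5 and 21.7 TPM in AAV-GFP replicates 1 to 3. The leptin libraries had 24.9, 26.6 and 21.8 TPM. The lowest leptin library lay within the control range, and the log2 fold change was 0.25 (SE 0.11, 95% interval -0.014 to 0.51, limma adjusted p = 0.280). Without control replicate 2 the Rela value was 0.15. Nfkb1 (ENSMUSG00000028163, chromosome 3, 135584655 to 135691547) was measured at 16.7, 13.8 and 13.6 TPM in the control libraries. In the leptin libraries it was 17.7, 16.5 and 15.8 TPM. AAV-GFP replicate 1 overlapped the leptin libraries, and the log2 fold change was 0.17 (95% interval -0.049 to 0.40, adjusted p = 0.369). The Nfkb1 value was -0.024 with protein-coding transcripts only, 0.10 under quantile normalization and 0.26 without control replicate 1. Rel (ENSMUSG00000020275, chromosome 11, 23736847 to 23770970), the scarcest of the 10, was measured at 1.08, 1.05 and 1.01 TPM in the control libraries. The leptin values were 1.26, 1.17 and 1.39 TPM. The groups were apart, yet the log2 fold change of 0.15 (95% interval -0.21 to 0.52) had an adjusted p of 0.642. It was 0.026 under quantile normalization and 0.26 with a pseudocount of 0.1.

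Nfkb2 and Relb encode p100, the precursor of p52, and its partner RelB, the dimer of the alternative pathway that the kinase NIK controls. Nfkb2 (ENSMUSG00000025225, chromosome 19, 46304320 to 46312385) was measured at 3.04, 2.79 and 2.88 TPM in the control libraries. Leptin libraries gave 3.05, 3.53 and 3.32 TPM. The lowest leptin library barely exceeded the highest control, and the log2 fold change was 0.14 (95% interval -0.13 to 0.41, limma adjusted p = 0.562), with 0.0049 under quantile normalization. The annotation places part of Nfkb2 opposite Psd and a non-coding gene, and the sources used here do not say whether strand was used in counting. Relb (ENSMUSG00000002983, chromosome 7, 19606217 to 19629438) was measured at 7.21, 6.38 and 6.96 TPM in the control libraries. The 3 leptin libraries stood at 6.94, 5.92 and 4.59 TPM. Replicate 1 of AAV-Leptin-GFP lay within the control range, and the log2 fold change was -0.22 (95% interval -0.55 to 0.11, adjusted p = 0.452). The Relb value was -0.081 without leptin replicate 3, -0.33 without leptin replicate 1 or under quantile normalization, and -0.079 with protein-coding transcripts only. Map3k14, which encodes NIK, was at 2.68 ± 0.246 and 3.47 ± 1.05 TPM (log2 fold change 0.26, adjusted p = 0.493).

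**Figure D2:**
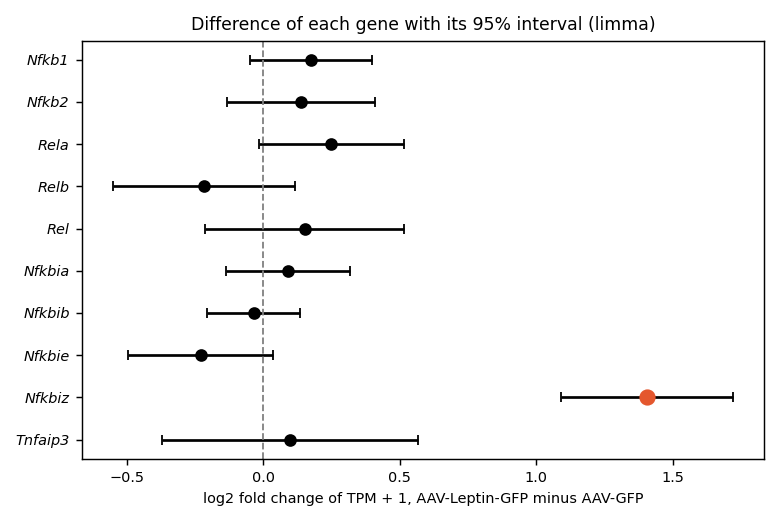
Log2 fold change of TPM + 1 (horizontal axis, AAV-Leptin-GFP minus AAV-GFP) of each gene, with the 95% interval from limma; the larger coloured point passed the test over all genes. Nfkbiz lies at 1.41, and the intervals of the other 9 genes include 0.

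Of the classical inhibitors, Nfkbib and Nfkbia were the most abundant inhibitors in both groups, and none of the 3 passed the test. Nfkbia (ENSMUSG00000021025, chromosome 12, 55489410 to 55492647), the standard read-out of NF-kappaB feedback, was measured at 23.9, 24.6 and 19.3 TPM in the control libraries. The leptin libraries had 23.9, 24.7 and 23.3 TPM. The groups overlapped, and the log2 fold change was 0.090 (SE 0.097, 95% interval -0.14 to 0.32, limma adjusted p = 0.658), with -0.029 for protein-coding transcripts only. A change of the size seen for Nfkbiz lies outside that interval. Nfkbib (ENSMUSG00000030595, chromosome 7, 28758251 to 28767512) was measured at 34.1, 32.3 and 30.9 TPM in the control libraries. In the leptin libraries it was 32.8, 29.0 and 33.2 TPM. The log2 fold change was -0.035, and the narrowest interval of the 10 genes ran from -0.21 to 0.14 (adjusted p = 0.838). The Nfkbib gene overlaps Sirt2 and Ccer2 on the other strand. Nfkbie (ENSMUSG00000023947, chromosome 17, 45555703 to 45563169) was measured at 6.90, 6.63 and 7.30 TPM in the control libraries. The leptin values were 6.49, 5.95 and 4.96 TPM. Every leptin library lay below every control library, but the log2 fold change of -0.23 (95% interval -0.49 to 0.036) had an adjusted p of 0.319. It was -0.14 without leptin replicate 3, -0.35 under quantile normalization and -0.32 with protein-coding transcripts only (limma adjusted p = 0.176).

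Tnfaip3 (ENSMUSG00000019850, chromosome 10, 19000910 to 19015657), which encodes A20, was measured at 2.85, 1.63 and 3.15 TPM in the control libraries. Leptin libraries gave 2.81, 2.36 and 3.03 TPM. All leptin values lay inside the control range, which AAV-GFP replicate 2 widened. The log2 fold change was 0.099 (95% interval -0.37 to 0.57, limma adjusted p = 0.833), and it was -0.10 without that replicate and -0.035 under quantile normalization.

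TPM is corrected for length, so levels can be set beside each other. In AAV-GFP libraries the order from high to low was Nfkbib (32.5 TPM), Nfkbia (22.6), Rela (20.4), Nfkb1 (14.7), Nfkbie (6.94), Relb (6.85), Nfkb2 (2.90), Tnfaip3 (2.54), Nfkbiz (2.46) and Rel (1.05). Neighbours whose ranges overlapped were Nfkbia and Rela, Nfkbie and Relb, Nfkb2 and Tnfaip3, and Tnfaip3 and Nfkbiz. With AAV-Leptin-GFP, Nfkbiz took rank 5 at 8.10 TPM, and its lowest library lay above the highest Relb library (6.94 TPM) and below every Nfkb1 library. Rela and Nfkbia exchanged places there, at 24.5 and 24.0 TPM, within overlapping ranges. Their most abundant coding transcripts kept the control order, with control and leptin means of 22.2 and 21.6 TPM for Nfkbia-201 and 18.2 and 20.2 TPM for Rela-201. The 5 subunits summed to 45.9 ± 4.31 TPM in the control libraries and 51.5 ± 3.98 TPM in the leptin libraries (SD, n = 3). The 3 classical inhibitors summed to 62.0 ± 3.97 and 61.5 ± 1.81 TPM. Inhibitor messenger RNA thus stood at 1.36 ± 0.153 and 1.20 ± 0.103 times that of the subunits, with ranges that overlapped. These sums include the retained-intron transcripts described below and were not recomputed without them.

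Transcript values showed where gene totals were firm and where they were not. Of 56 transcripts of the 10 genes, 43 were listed above 0 in any library. Rel has 1 transcript, Nfkbib-202 held at least 97.3% of its gene in every library, and Nfkbie-201 at least 87.6%. Relb was the least settled. Relb-203 was listed at 5.92, 4.17 and 5.26 TPM in the control libraries, at 3.50 TPM in leptin replicate 3 and at 0 in leptin replicates 1 and 2. Relb-202 was listed at 5.82 and 5.15 TPM in those last libraries and at 0 in the other 4. The sequences of these transcripts are identical except for 6 bases at the 3′ end of Relb-202. The estimate of which of them is present is therefore carried by those 6 bases, and the gene total, not the split, was used.

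**Figure D3:**
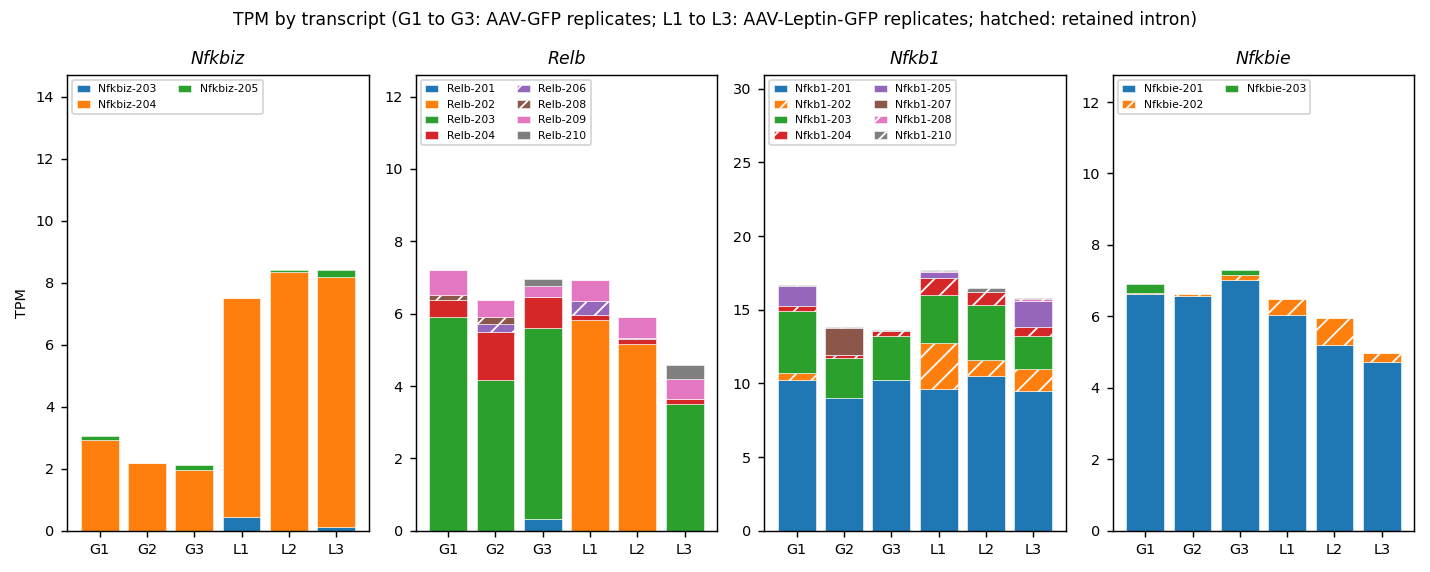
TPM (vertical axis, from 0) by transcript in each library for Nfkbiz, Relb, Nfkb1 and Nfkbie; colours are transcripts, hatching marks retained-intron transcripts, and names are those of GENCODE M21. Nfkbiz-204 fills the Nfkbiz bars, the Relb signal changes between Relb-203 and Relb-202 from library to library, and hatched parts of Nfkb1 and Nfkbie are larger in the leptin libraries.

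Retained-intron transcripts keep an intron and do not encode the full protein. Over whole libraries they took 2.29% ± 0.200 of all TPM in the control and 3.53% ± 0.260 in the leptin libraries (SD, n = 3, exact permutation p = 0.1, the smallest that 3 against 3 libraries allow). The mitochondrial share of all TPM was 5.88% ± 0.234 and 8.08% ± 0.949, also higher in every leptin library (exact permutation p = 0.1). With mitochondrial genes removed the Nfkbiz difference was 1.45 on the log2 scale (limma adjusted p = 0.0119). The part of both shifts in the other results was not tested. For Nfkb1, whose 4 such transcripts summed to 0.811, 0.190 and 0.366 TPM in the control libraries and 4.48, 2.19 and 2.37 TPM in the leptin libraries, the share of the gene was 2.98% ± 1.77 and 17.9% ± 6.49. For Nfkbie the share was 1.10% ± 0.704 and 8.13% ± 3.82. In both genes every leptin library exceeded every control library (exact two-sided permutation p = 0.1 each, 0.35 after Benjamini-Hochberg adjustment over 7 genes). For Nfkb2, Rela, Relb, Nfkbia and Tnfaip3 the shares overlapped between groups. The longest coding transcript of Nfkb1, of 4117 nt, stood at 9.85 ± 0.704 and 9.88 ± 0.570 TPM. Of the 13 retained-intron transcripts of the family listed above 0, 5 were higher in every leptin library and none was lower in every one. Over all 17829 such transcripts 32.8% were higher in every leptin library, so the family's count is near the background.

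The rest of the pathway was followed through 120 further genes, of which 94 passed the filter. Of these, Irf1 was called higher and none lower, while 1.54% of all tested genes were called higher, so a single call among 94 is near the background. At an unadjusted limma p under 0.05, 21 were higher and 3 lower, beside 11.3% and 8.19% of all tested genes. The groups were apart for 20 genes in the higher and 4 in the lower direction, beside 13.3% and 11.9% of all tested genes. Both counts of higher genes include Ccl4, Cxcl1, Ccl3, Ptgs2, Card9 and Nfkbid, which averaged under 1 TPM in the control libraries. These passed the filter only through the leptin libraries, so both counts lean on the group in which they are high. The median log2 fold change of the 94 genes was 0.086. Irf1 (chromosome 11, 53770014 to 53778374) encodes an interferon regulatory factor whose promoter answers both STAT and NF-kappaB factors. It stood at 15.8, 10.8 and 15.0 TPM in the control libraries. The 3 leptin libraries stood at 33.1, 41.0 and 29.7 TPM. Its groups were far apart, with a difference of 1.27 on the log2 scale (SE 0.16, limma adjusted p = 0.0238).

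Irf1 lost its call in 7 of 14 alternatives, which included leaving out AAV-GFP replicate 2 (1.11, adjusted p = 0.0698), AAV-GFP replicate 3 (1.33, 0.106), AAV-Leptin-GFP replicate 1 (1.29, 0.0900) or AAV-Leptin-GFP replicate 2 (1.14, 0.0881). Among 41 target genes listed, 32 were tested, with a median of 0.26, 24 above 0 and 9 higher at an unadjusted p under 0.05. Over all tested genes 49.9% were above 0 and 11.3% higher at that threshold. Of 8 tested chemokine genes in that list, 4 had groups that did not overlap, all higher, and these were picked out after their values were seen. Over all tested genes 13.3% had groups apart in the higher direction. Cxcl2, a neutrophil attractant, stood at 2.15, 2.04 and 0.341 TPM in the control libraries and 6.87, 2.85 and 5.74 TPM in the leptin libraries (1.33, adjusted p = 0.130). Ccl4 stood at 0.539, 0.394 and 0 TPM and at 2.61, 1.96 and 1.55 TPM (1.22, adjusted p = 0.0584). Cxcl1 (0.92, adjusted p = 0.106) and Ccl3 (0.64, adjusted p = 0.145) also had groups that did not overlap. Ccl4, Cxcl1 and Ccl3 averaged 0.311, 0.532 and 0.937 TPM in the control libraries, under the filter of 1 TPM. They passed the filter only through the leptin libraries, as did Ptgs2 (0.703 TPM in the control libraries). All of these are among the 9 target genes counted above, so that count leans on the group in which they are high. None of the 4 chemokine genes whose groups were apart passed over all genes. The other 4 overlapped between the groups: Cxcl10 was at 0.28 (adjusted p = 0.702), Ccl2 at 0.26 (0.657), Cx3cl1 at 0.25 (0.472) and Ccl5 at -0.066 (0.958). Sod2, a mitochondrial superoxide dismutase and the most abundant target, was at -0.15 (adjusted p = 0.344).

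**Figure D4:**
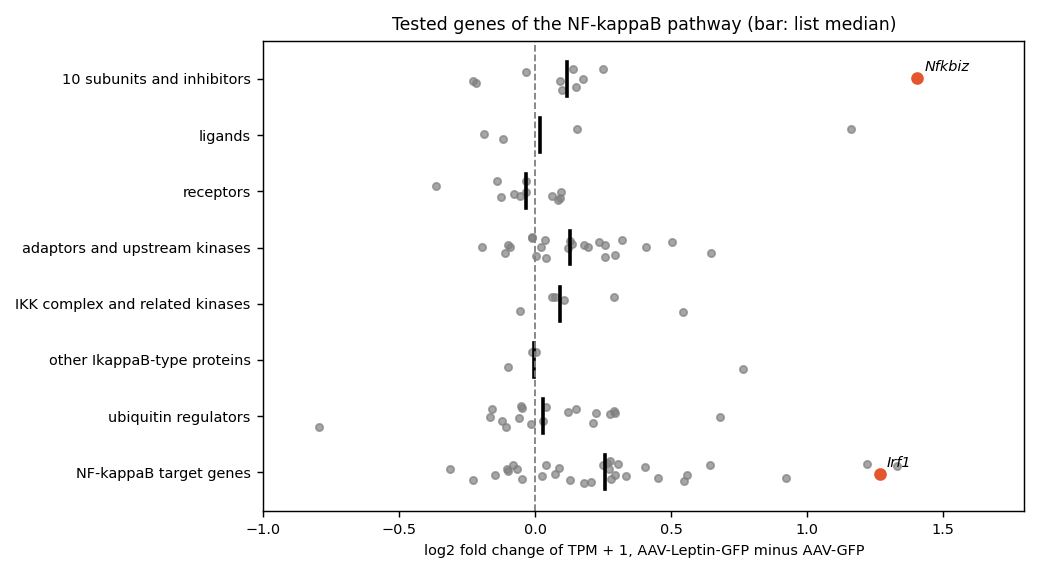
Log2 fold change of TPM + 1 (horizontal axis, AAV-Leptin-GFP minus AAV-GFP) of the tested genes in each list; points are genes, bars list medians, and coloured points passed the test over all genes. Nfkbiz at 1.41 and Irf1 at 1.27 are the called genes, and the median of the target list is 0.26.

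No ligand, receptor, adaptor, kinase or ubiquitin regulator passed the test. Of 12 ligand genes 4 were tested and 8, Tnf among them, lay under the filter. Tnf was listed at 0.359, 0.214 and 0.574 TPM in the control libraries and 0.452, 0.651 and 0.779 TPM in the leptin libraries (exact permutation p = 0.2). Il1b, which encodes interleukin-1 beta, an inducer of IkappaB-zeta, had the smallest p of the ligands. It stood at 8.55, 3.99 and 2.27 TPM in the control libraries and 16.4, 9.61 and 8.49 TPM in the leptin libraries. AAV-GFP replicate 1 overlapped the leptin group, and the log2 fold change of 1.16 (95% interval 0.23 to 2.09) had an adjusted limma p of 0.173. Among 11 tested receptors the smallest p belonged to Ngfr, the neurotrophin receptor p75, at 565.6 ± 10.4 and 514.1 ± 33.1 TPM (-0.14, adjusted p = 0.202), with -0.084 without leptin replicate 3 and -0.061 under quantile normalization.

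Adaptors and upstream kinases gave 6 of 23 higher at an unadjusted p under 0.05 and none lower, with a median of 0.13, beside 11.3% and 8.19% of all tested genes. Card9, among these 6, averaged 0.910 TPM in the control libraries and passed the filter only through the leptin libraries. The smallest p was that of Irak1, a kinase of the interleukin-1 and Toll-like receptor route, at 27.9 ± 4.21 and 37.2 ± 5.09 TPM (0.41, limma adjusted p = 0.155), but 0.072 with protein-coding transcripts only. In the IKK group of 6 tested genes the smallest p was that of Chuk, the kinase IKK-alpha, at 16.7 ± 2.50 and 25.1 ± 5.97 TPM (0.54, adjusted p = 0.158), and -0.0031 with protein-coding transcripts only. Among the other IkappaB-type genes Nfkbid, which encodes a further nuclear inhibitor, IkappaB-NS, was nearest to the threshold. It stood at 0.781, 0.988 and 0.518 TPM in the control libraries and 2.23, 1.84 and 1.87 TPM in the leptin libraries. Its control mean of 0.762 TPM lay under the filter of 1 TPM, which it passed only through the leptin libraries. The groups were apart by 0.76 on the log2 scale (SE 0.18, adjusted p = 0.0779), and by 1.30 with a pseudocount of 0.1. Bcl3, another nuclear IkappaB-type gene, stood at 11.8 ± 2.32 and 10.8 ± 0.822 TPM (-0.10, adjusted p = 0.754). Of 19 tested ubiquitin regulators Tnip2, which encodes a partner of A20, had the smallest p, at 2.92 ± 0.322 and 5.36 ± 1.25 TPM (0.68, adjusted p = 0.0898), and 0.42 (adjusted p = 0.158) with protein-coding transcripts only.

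The genes most like Nfkbiz over the 6 libraries were looked up among 9381 genes averaging 10 TPM or more, by Pearson correlation of log2(TPM + 1). The 5 closest were Cpeb1 (r = 0.997), Hdhd5 (0.995), Zfp36l1 (0.994), Sppl2b (0.994) and Btg2 (0.993). The 6 points fall in 2 groups and carry the group difference, and 188 genes reached 0.95 or more. Zfp36l1 encodes a protein that destabilises messenger RNA, and Btg2 an antiproliferative early-response protein. Zfp36l1 rose from 12.7 ± 0.633 to 20.1 ± 1.20 TPM (log2 fold change 0.63, limma adjusted p = 0.0203) and Btg2 from 12.2 ± 1.96 to 31.7 ± 4.46 TPM (1.31, adjusted p = 0.0155). Hdhd5 (0.43, adjusted p = 0.0306) and Sppl2b (0.52, adjusted p = 0.0306) rose as well. Cpeb1, a regulator of translation, stood at 277.1 ± 4.33 and 302.1 ± 2.70 TPM and did not pass (0.12, adjusted p = 0.112).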

How the data were processed

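The authors deposited TPM values, 1 per Ensembl transcript and library, each library summing to 1000000. The submitters' processing notes name Salmon 1.6.0, Trim Galore 0.6.6, FastQC 0.11.9 and DESeq2 1.34.0 without saying what each did, and the builds mm10 and GRCm38. Which annotation was used is not given in the sources here. In GENCODE M21, 97.4% of the transcript identifiers were found, 37 of them with an equal version suffix. Positions, transcript classes and lengths are from M21. TPM keeps no read numbers, so depth is unknown, no counting interval is given, and a value of 0 is only a listed value. Since TPM has a fixed sum, a rise of abundant transcripts lowers the others.

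TPM were summed by gene identifier, and genes averaging 1 TPM or more were compared in R 4.3.3 by limma 3.58.1 after a log2(TPM + 1) transform (mean-variance trend, no covariates, two-sided), with Benjamini-Hochberg adjustment over 15108 genes and calls under 0.05. Single values were compared with exact permutation tests in scipy 1.17.1. Figures were drawn with matplotlib 3.10.9. On simulated libraries for these 15108 genes, 87 of 100 genes changed by 1 and 94 of 100 changed by 2 on the log2 scale were recovered, with 5 false calls. Each simulated gene varied independently, without the shifts across whole libraries seen here, so these rates do not carry over to the data. The 10 genes and the lists were chosen with earlier results of these data known. Named are the 10 genes, called pathway genes, the smallest p of each other pathway list, the 5 genes most like the leading one, and the most abundant marker of each list. Map3k14, Bcl3, Sod2, Tnf, the chemokine genes, Ptgs2, Card9, Cd14, Egr2 and the genes under the filter were named after their values were seen. Alternatives changed the pseudocount, filter, scaling, transcript set, trend, replicate block and libraries.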

Additional observations from a re-analysis of the deposited data

How the results depend on the processing

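Nfkbiz passed the test in 9 of 14 alternatives, with a log2 fold change of 1.29 to 1.70, an adjusted limma p of 0.00401 to 0.0775 and an unadjusted p of at most 0.000167. These 9 include the filter at a mean of 5 TPM, which Nfkbiz met only through the leptin libraries. Its mean was 2.46 TPM in the control, 8.10 TPM in the leptin and 5.28 TPM over all libraries. That pass thus leans on the group in which Nfkbiz is high. The loss came with no filter on low values (1.41, adjusted p = 0.0661), where 29036 genes were tested, and without 1 of 4 libraries (1.336 to 1.53 over the 6 fits). The other 9 genes passed in none of their 123 values (lowest adjusted p 0.139). Signs reversed for Nfkb1 (-0.024), Nfkbia (-0.029) and Chuk (-0.0031) with protein-coding transcripts only, and for Tnfaip3 under quantile normalization (-0.035). Leaving out 1 library gave -0.015 to 0.15 for Nfkbia (negative without control replicate 3), -0.070 to 0.025 for Nfkbib (positive without control replicate 1, at 0.00019, or leptin replicate 2) and -0.10 to 0.23 for Tnfaip3 (negative without control replicate 2). The cause was not tested.

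Of the 10 genes, 0 were called higher with no filter and 0 to 1 without 1 library. Pathway genes called higher numbered 2 at a filter of 5 TPM, 3 with mitochondrial genes removed, 0 with no filter, no trend or a replicate block, and 0 to 2 without 1 library. Over all genes 233 were higher and 10 lower. The counts were 4 and 0 with no filter, 53 and 4 with protein-coding transcripts only, and 35 and 0 with no trend. A filter of 5 TPM gave 27 lower, removal of mitochondrial genes 3 lower, and leaving out 1 library 4 to 453 higher and 0 to 13 lower. With the replicate number as a block, 74 genes were higher and 0 lower, and Nfkbiz had an adjusted p of 0.0491. Same-numbered libraries did not deviate together over all tested genes (correlations 0.034, -0.070 and -0.024). With 3 libraries per group this cannot tell whether a shared number marks a shared origin, which the labels do not state. Keeping only transcripts of at least 1 TPM could not test the retained-intron difference of Nfkbie. Its 1 retained-intron transcript reached at most 0.737 TPM in any library, so that cut removes it.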

Other observations

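Relb-204, a transcript of 784 nt annotated as processed and without a reading frame, was lower with leptin. It was listed at 0.473, 1.33 and 0.860 TPM in AAV-GFP replicates 1, 2 and 3 and at 0.152, 0.142 and 0.151 TPM in the AAV-Leptin-GFP replicates. It was picked out after its values were seen and was not tested. The short coding form Relb-209 stood at 0.489 ± 0.194 and 0.568 ± 0.0190 TPM. Among pathway genes under the filter, Sele, the adhesion molecule E-selectin, stood at 0.134, 0 and 0.0789 TPM in the control libraries and 0.346, 0.292 and 0.688 TPM in the leptin libraries. Sele, Tlr9 and, in the lower direction, Il18r1 were the genes among the 26 under the filter that reached an exact permutation p = 0.1, the smallest possible. That p means groups that do not overlap, which held for 25.2% of the genes above the filter, so these genes do not stand out from the background.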
